A study of Mus musculus with 13 samples.

Results

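The libraries titled LacZ at t48 were compared with those titled LacZ at t0, which are 4 of the 13 libraries of the series. They were chosen by their titles: 2 LacZ t48 and 2 LacZ t0 libraries, paired by cell line number, with lines 10 and 12 each sampled at both labels. All 13 libraries are poly(A) RNA from cultured cells labelled as mouse melanoma. The series was made to follow soluble adenylyl cyclase (sAC, gene Adcy10) when it is placed in chosen compartments of the cell. This enzyme makes cyclic AMP. The t0 libraries carry the treatment label of cells without doxycycline (0 h), and the t48 libraries that of cells with doxycycline in the medium for 48 h. The other 9 libraries are 3 NLS lines (6, 7 and 16) at t0, t6 and t48. The compartment label of the LacZ t0 libraries is none, but that of the LacZ t48 libraries is nuclear, which goes against their titles. The libraries were kept with their titles and are called by them throughout. The mouse strain, the mutations of the melanoma, the promoter that drives LacZ and whether a line number stands for 1 clone were not stated in the labels.

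The lacZ gene of bacteria encodes beta-galactosidase, an enzyme that is commonly expressed in control lines in the place of the protein under study. Doxycycline, a tetracycline antibiotic, switches on genes placed under a promoter that answers to it, and it also binds the ribosomes of mitochondria. The labels separate t48 from t0 by the drug and by time together, and do not say whether both libraries of a line number came from the same passage or clone. The parts of drug, time, passage and clone in any difference between t48 and t0 cannot be told apart.

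Levels below are CPM, the estimated reads of a gene scaled to the TMM-adjusted size of its library. A change is a log2 fold change of t48 over t0 within lines, and a gene is called where the quasi-likelihood test of edgeR gives an adjusted p below 0.05. The labels tell libraries apart by line number and time alone, without naming separate cultures, and a p-value here reflects only how these libraries scatter, which may be technical. In bulk RNA fewer cells of a type and less RNA per cell cannot be told apart.

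Depth was similar, with 18512887 to 20233514 estimated reads in the LacZ libraries. Adcy10 had 3 and 2 reads in the t0 libraries of lines 10 and 12 and 3 and 0 reads in their t48 libraries, and a count of 0 allows up to 3 reads. In NLS lines 6 and 7 it lay between 181 and 373 CPM at every label, t0 included, but in NLS line 16 between 0.675 and 1.23 CPM (14 to 26 reads), against that line's title. The melanoma label was checked against markers. Of 18 pigment cell markers, 4 reached 1 CPM in a LacZ library, among them Mitf, the master regulator of melanocytes, at 3.04 to 3.64 CPM. Tyrp1, Kit, Oca2, Gpr143 and Rab38, which serve pigment synthesis, pigment cell survival or melanosome transport, had 0 reads in all 4. Sox10, Tyr, Dct, Pmel and Mlana reached at most 0.0511, 0.46, 0.307, 0.358 and 0.0497 CPM (TMM factors of all 13 libraries). Most of the pigment list thus lay near the floor and does not bear out the label. The summed level of the pigment list over library totals was 65.7 to 67.4 CPM at t0 and 63.7 to 63.8 CPM at t48 (65.7 to 66.5 and 65.8 to 66.9 CPM with TMM factors of all 13 libraries), and 1 of its 4 tested members was called higher and 2 lower. Gpnmb, a glycoprotein of melanosomes, rose from 8.50 and 8.49 to 15.7 and 18.6 CPM, a call lost without line 12 (edgeR adjusted p = 0.0794), and Pax3, a factor of the neural crest, was at 48.9 and 47.8 against 44.0 and 39.4 CPM, a call lost in all 6 fits with libraries left out (adjusted p up to 0.759). Pax3 made up most of the summed level of the pigment list. Of 11 fibroblast markers 8 reached 1 CPM, with sums of 9251 to 9469 CPM at t0 and 7918 to 8211 CPM at t48. Other cell types were scarce. Their sums at t0 and at t48 were 6.17 to 7.09 and 8.36 to 9.17 CPM for leukocyte markers, of which 1 of 14 reached 1 CPM and 5 had 0 reads. They were 6.76 to 6.92 and 3.46 to 5.01 CPM for keratinocyte markers (2 of 13, 4 at 0), 2.60 to 3.23 and 2.16 to 2.97 CPM for endothelial markers (1 of 9, 4 at 0) and 38.1 to 40.6 and 34.9 to 35.5 CPM for Schwann and neural crest markers (5 of 12, 2 at 0). The part of these cell types in the results was not tested.

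The changes followed chromosome position, which bears on every list below. The genes of chromosomes 3, 5, 8 and 12 were lower at t48 as a body, and by the same amount in both lines. On chromosome 3 the median log2 ratio of the 561 tested genes was -0.22 in line 10 and -0.25 in line 12, a ratio of 0.859 and 0.843. Chromosome 8 had medians of -0.20 and -0.20 over 618 genes. The shift on chromosome 12 ran from 49382660 to 119469987 (GRCm38), over 313 genes with a median of -0.31 in each line, while the 106 genes before it had a median of -0.03 in each. On chromosome 5 it ran from 93924777 to 151651242, over 441 genes with medians of -0.31 and -0.33, and the 297 genes before it stood at 0.04 in each line. The limits were set, after the values were seen, from windows of about 50 genes whose mean over lines was at or below -0.12. In the NLS lines the medians of t48 over t0 in the same segments lay between -0.09 and 0.00. The NLS lines had shifts of their own elsewhere, with every window between 0.11 and 0.28 on chromosome 1 and between 0.07 and 0.39 on chromosome 7 in all 3 lines, and between -0.015 and 0.235 on chromosome 2.

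**Figure D1:**
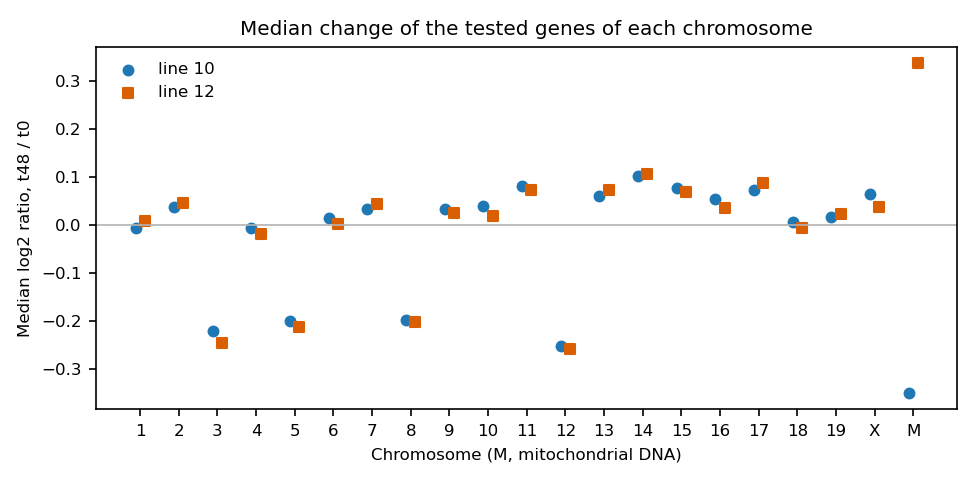
Median log2 ratio of t48 to t0 over the tested genes of each chromosome, with line 10 as circles and line 12 as squares. Chromosomes 3, 5, 8 and 12 sit between -0.20 and -0.26 in both lines, the other nuclear chromosomes lie between -0.02 and 0.11, and the genes of mitochondrial DNA go opposite ways in the 2 lines.

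**Figure D2:**
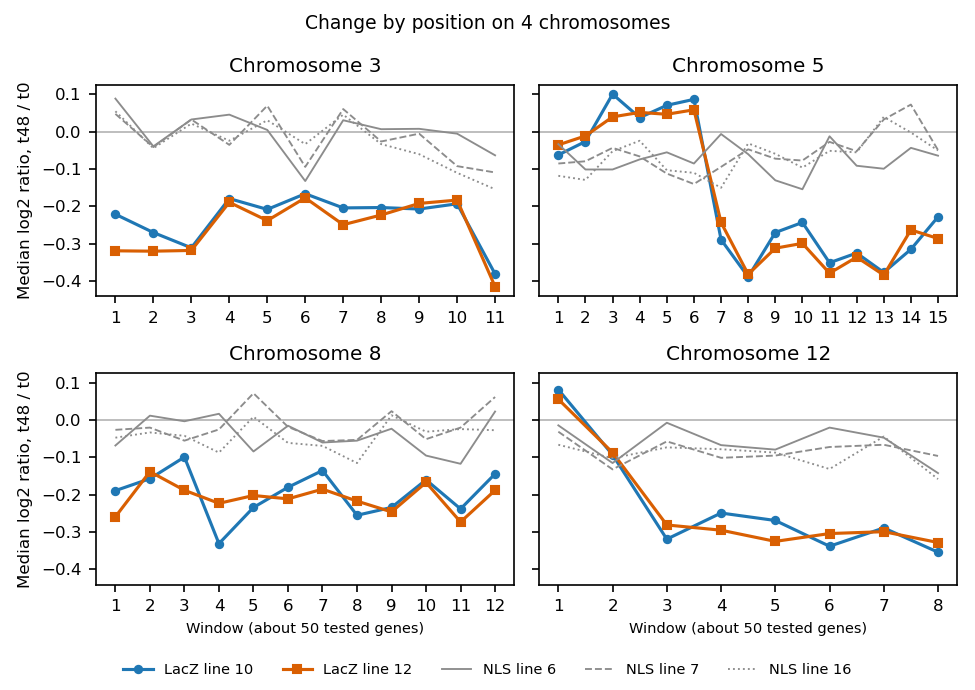
Median log2 ratio of t48 to t0 in consecutive windows of about 50 tested genes along 4 chromosomes, in the 2 LacZ lines (coloured) and the 3 NLS lines (grey). The LacZ lines step down together within chromosomes 5 and 12 and stay low along the whole of chromosomes 3 and 8, where the NLS lines stay near 0.

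Across the genome 11567 genes were tested, and 4359 (37.7%) were called, 2094 higher (18.1%) and 2265 lower (19.6%) at t48. Most of these changes were small, with a median size of 0.33 on the log2 scale, and 468 genes (4.05%) changed at least 2-fold, 159 of them higher and 309 lower. The segments of the 4 chromosomes held 1933 of the tested genes, of which 1071 (55.4%) were lower and 65 higher. Outside them 1194 of 9634 genes (12.4%) were lower and 2029 (21.1%) higher. When the libraries were scaled on the genes outside the segments alone, all log2 fold changes moved down by about 0.04 and the calls were 1597 higher and 2688 lower, so higher calls made up 37.3% in place of 48%. The labels did not overlap in 7321 tested genes (63.3%), 3628 with t48 higher (31.4%) and 3693 lower (31.9%). Among the 4359 called genes the labels did not overlap in 4214, so for a called gene below this adds little to the call. The lines went the same way in 4357 of the 4359 called genes, and across genes their log2 ratios correlated at r = 0.691, a description over genes that share libraries and scaling. Without the line number as a block the same test called 1183 higher and 1527 lower. With both libraries of line 10 left out, which leaves 1 library a label and takes the spread from the other groups of the series, 536 genes were called, and with line 12 left out 645.

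**Figure D3:**
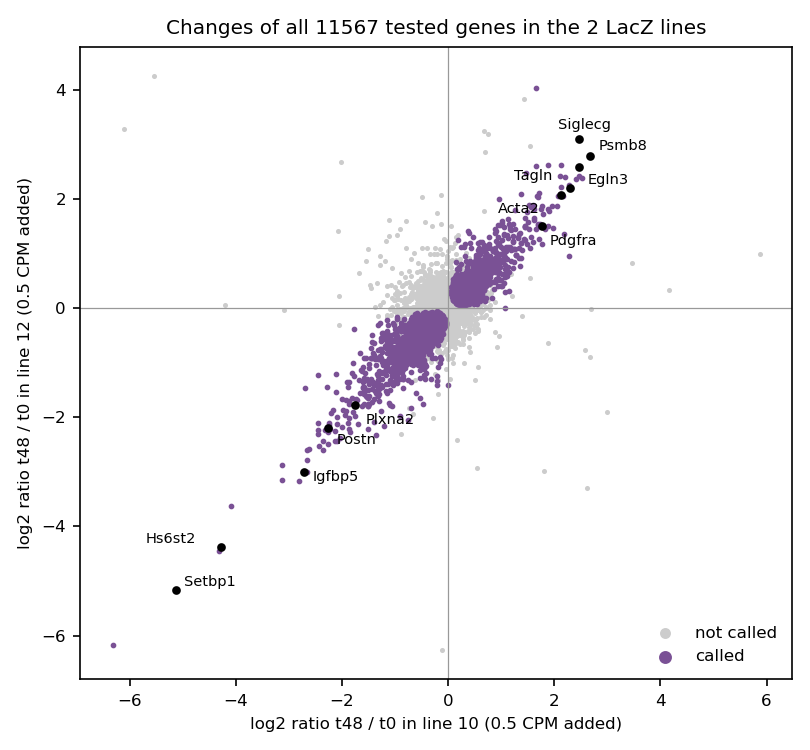
Log2 ratio of t48 to t0 in line 12 against line 10 for each tested gene, with 0.5 CPM added to both values, called genes in purple and 11 described genes in black. Called genes lie along the diagonal, with Psmb8, Egln3 and Tagln at the upper end and Setbp1 and Hs6st2 at the lower end.

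Among the largest decreases were genes that the t48 libraries nearly or wholly lacked. Hs6st2, which adds sulfate to heparan sulfate chains, had 9.24 and 9.86 CPM at t0 (175 and 201 reads in lines 10 and 12) and 0 reads in both t48 libraries, at least 61.0-fold lower against a floor of 3 reads per library. Setbp1, which encodes a nuclear protein that binds SET, fell from 22.7 and 22.9 to 0.163 and 0.150 CPM (log2 fold change -7.13, SE 0.24, edgeR adjusted p = 1.52e-15). Foxd1, a forkhead transcription factor of stromal cells, fell from 4.38 and 3.19 CPM to 0.0543 and 0 CPM. For these 3 genes no t48 library came near a t0 library, but they were picked among the largest called decreases, so this follows from the choice. Robo2, an axon guidance receptor, fell from 3.01 and 3.63 to 0.0543 and 0.10 CPM, and Cdh6, a cadherin of cell adhesion, from 4.38 and 5.69 to 0.0543 and 0.200 CPM. Plxna4, a semaphorin receptor, fell from 4.96 and 5.35 to 0.271 and 0.150 CPM. Tnik, a kinase that acts with transcription factors of the Wnt pathway, fell from 1.53 and 2.50 to 0.0543 and 0.150 CPM. All 7 genes were under 1 CPM in both t48 libraries. They thus passed the filter of 1 CPM in at least 2 libraries through t0 alone. These 7 genes kept their calls whichever library or line was left out. DESeq2 with the line as a block gave an adjusted p of 0.089 for Hs6st2. With length-scaled counts from the deposited TPM, edgeR gave an adjusted p of 0.054 for Robo2.

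Among the largest increases were genes of low level at t0. Dclk2, a microtubule-bound kinase, rose from 0.158 and 0.245 CPM to 3.15 and 3.51 CPM (4.0, SE 0.44, edgeR adjusted p = 3.68e-07). It lies within the low region of chromosome 3. Cyp11b1, a steroid hydroxylase of the adrenal gland, rose from 0.211 and 0.0982 to 1.47 and 2.81 CPM. Siglecg, a receptor for sialic acid best known from B cells, rose from 1.43 and 1.33 to 10.1 and 15.2 CPM (3.18, SE 0.22, adjusted p = 3.93e-10). Genes of cell death were among them. Ripk3, the kinase that drives necroptosis, rose from 0.581 and 0.491 to 4.23 and 5.61 CPM (3.18, SE 0.34), and Fas, a death receptor, from 0.158 and 0.491 to 2.06 and 3.16 CPM (3.01, SE 0.44). Has1, which makes hyaluronan, rose from 0.370 and 0.491 to 3.69 and 4.21 CPM (3.18, SE 0.37). The labels did not overlap for any of these 6 genes, but they were picked among the largest called increases, so this follows from the choice. Siglecg aside, they were under 1 CPM in both t0 libraries. They thus passed the filter of 1 CPM in at least 2 libraries through t48 alone. Of all tested genes 71 did so, and 147 passed through t0 alone. The call of Has1 was lost without either line. Genes under 0.1 CPM in both libraries of 1 label and at 1 CPM or more in both of the other numbered 6 at t0 alone and 5 at t48 alone. The first set holds Hs6st2, Foxd1, the guidance receptor gene Robo1 (32 and 45 reads at t0, 0 and 0 at t48), the synaptic gene Rims2 and 2 pseudogenes. The second holds Pilra, an inhibitory receptor gene (1 and 2 reads against 25 and 32), 3 pseudogenes and 1 clone-named gene. Pseudogene values are uncertain, since their reads are shared with near-identical copies.

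Contractile genes rose together. This list holds targets of serum response factor and its MRTF partners, which answer to the state of the actin cytoskeleton, and of its 17 tested members 14 were higher, 1 lower and 2 not called, with a median log2 fold change of 0.43 (0.44 in line 10 and 0.43 in line 12) where the median of all genes was 0. Acta2, smooth muscle actin and a marker of contractile fibroblasts, stood at 338 and 429 CPM at t0 and at 1477 and 1816 CPM at t48 (2.10, SE 0.07, edgeR adjusted p = 7.45e-16). Tagln, an actin-binding protein of smooth muscle, rose from 20.7 and 27.5 to 104 and 128 CPM (2.27, SE 0.06, adjusted p = 9.02e-17). Actg2, the enteric actin, rose from 17.8 and 23.6 to 49.8 and 67.4 CPM (1.5, SE 0.07). Des, which encodes the intermediate filament desmin, was the member that fell, from 32.1 and 33.6 to 22.8 and 23.9 CPM (-0.49, SE 0.08). The t48 libraries of both lines lay outside the t0 range for these 4 genes. Without line 10 the call remained for 2 members and without line 12 for 1, and Acta2, Tagln, Actg2 and Des lost theirs in both cases (adjusted p up to 0.118, 0.128, 0.108 and 0.377). Of the 2 members in the low segments, 1 was higher and none lower.

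**Figure D4:**
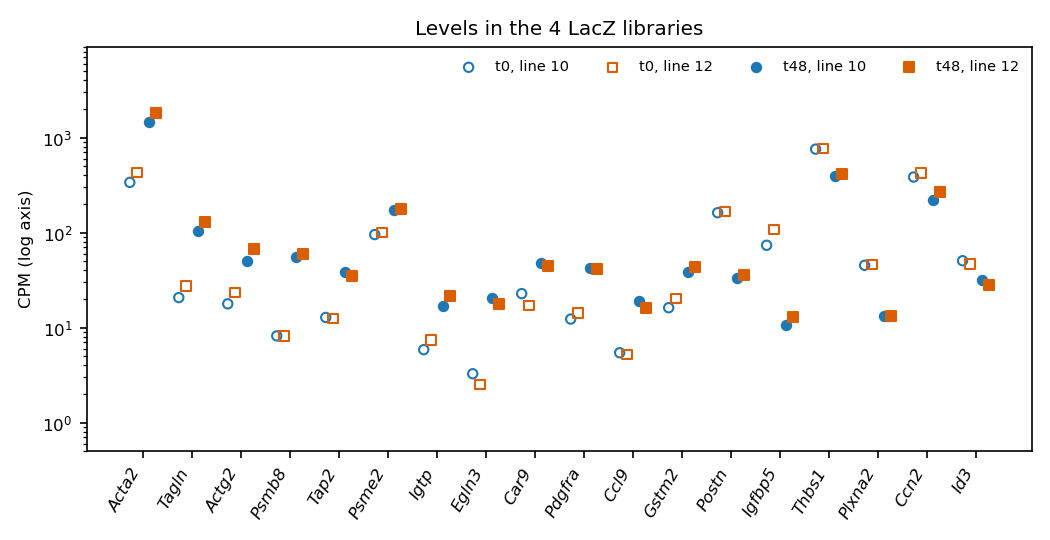
CPM on a log axis of 18 genes in the 4 LacZ libraries, with open symbols for t0, filled symbols for t48, circles for line 10 and squares for line 12. The 12 genes at the left are higher and the 6 at the right lower in both t48 libraries.

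Genes of antigen presentation on MHC class I rose as well. The pathway cuts proteins in the immunoproteasome, carries the peptides into the endoplasmic reticulum through the TAP transporter and loads them onto class I molecules. Of 16 tested members 11 were higher and none lower, with a median of 0.43. Psmb8, a catalytic subunit of the immunoproteasome, stood at 8.18 and 8.15 CPM at t0 and at 55.2 and 59.2 CPM at t48 (2.81, SE 0.09, edgeR adjusted p = 4.39e-16). Tap2, a chain of the transporter, rose from 12.8 and 12.5 to 38.1 and 35.0 CPM (1.53, SE 0.09, adjusted p = 4.5e-11), and Psme2, a proteasome activator subunit, from 95.4 and 100.4 to 174 and 178 CPM (0.85, SE 0.05, adjusted p = 1.25e-11). Psmb8, Tap2 and Psme2 kept their calls without any 1 library and without either line. Of the class I chains, H2-T22 rose from 34.2 and 32.5 to 48.3 and 46.9 CPM (0.51, SE 0.07), while H2-K1 and H2-T23 were not called (adjusted p = 0.138 and 0.111). H2-D1 was at 135 and 137 CPM at t0 and 132 and 138 CPM at t48 and B2m, the light chain, at 547 and 634 against 582 and 648 CPM, with neither called. H2 genes are near-identical copies, so their values are uncertain. Without line 10 there were 5 members higher and without line 12 there were 6.

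Interferon-stimulated genes, the antiviral genes that STAT and IRF factors switch on, rose in the larger part of the list, with 23 of 37 tested members higher and 1 lower and a median of 0.80. The size differed between the lines, with a median log2 ratio of 0.28 in line 10 and 0.95 in line 12. Igtp, a GTPase that guards against intracellular pathogens, rose from 5.86 and 7.41 to 16.9 and 21.6 CPM (1.54, SE 0.13, edgeR adjusted p = 5.63e-09). Ifi35 rose from 20.4 and 20.4 to 34.2 and 36.7 CPM (0.80, SE 0.09) and Gbp2, a guanylate-binding protein, from 16.4 and 16.4 to 26.8 and 31.0 CPM (0.82, SE 0.10). Cxcl10, a chemokine that draws T cells, was the lower member, at 18.6 and 14.9 CPM at t0 and 12.2 and 12.2 CPM at t48 (-0.45, SE 0.12, adjusted p = 0.00521). Of these 4, Igtp and Ifi35 kept their calls in all 6 fits with libraries left out, Gbp2 lost it without line 12 (adjusted p = 0.0772), and Cxcl10 lost it in 5 of the 6 (adjusted p up to 0.615, without line 10). Over the list, 7 members were higher without line 10 and 4 without line 12. Of the 10 tested members in the low segments, 5 were higher.

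The 250 bases before the RefSeq start sites of 4 of these genes (GRCm38.p6) are shown because they hold, in capitals, the letters that IRF factors (GAAANNGAAA) or STAT factors (TTCNNNGAA) are known to bind, searched on both strands. The windows are Igtp at chr11:58199306-58199555 (plus strand), Gbp2 at chr3:142620413-142620662 (plus), Cxcl10 at chr5:92348890-92349139 (minus) and Psmb8 at chr17:34197945-34198194 (plus). Capitals mark GAAANNGAAA in the sequences of Igtp, Gbp2 (its reverse strand) and Cxcl10 and TTCNNNGAA in that of Psmb8. The Igtp window also holds TTCNNNGAA, left in lower case.
Igtp: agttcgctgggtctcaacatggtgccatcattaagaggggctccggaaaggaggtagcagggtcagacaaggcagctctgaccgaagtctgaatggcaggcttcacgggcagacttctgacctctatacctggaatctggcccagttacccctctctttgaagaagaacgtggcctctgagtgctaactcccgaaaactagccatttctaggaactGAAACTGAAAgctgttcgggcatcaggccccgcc
Gbp2: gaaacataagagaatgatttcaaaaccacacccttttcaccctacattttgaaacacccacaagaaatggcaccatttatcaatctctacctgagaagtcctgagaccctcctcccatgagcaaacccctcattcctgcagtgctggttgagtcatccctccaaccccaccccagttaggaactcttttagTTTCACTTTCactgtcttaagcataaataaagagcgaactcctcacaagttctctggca
Cxcl10: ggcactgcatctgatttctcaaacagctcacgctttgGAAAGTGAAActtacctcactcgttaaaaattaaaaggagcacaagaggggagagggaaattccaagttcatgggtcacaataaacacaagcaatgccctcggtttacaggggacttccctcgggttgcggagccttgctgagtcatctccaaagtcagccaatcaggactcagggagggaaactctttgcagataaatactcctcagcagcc
Psmb8: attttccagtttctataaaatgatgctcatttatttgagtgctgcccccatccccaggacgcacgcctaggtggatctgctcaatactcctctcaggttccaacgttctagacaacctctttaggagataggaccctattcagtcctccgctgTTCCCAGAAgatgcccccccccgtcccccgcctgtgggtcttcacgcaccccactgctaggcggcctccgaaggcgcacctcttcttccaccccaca
The IRF letters lie 34 bases before the start of Igtp, 59 before that of Gbp2 and 213 before that of Cxcl10, counted from the upstream end of the match. Of the 38 listed interferon genes 29 matched the RefSeq promoter table, and 15 of their 33 promoters (45.5%) held GAAANNGAAA, against 2.98% of all 32851 promoters of the same length. Of these 15 genes 8 were called higher and 1, Cxcl10, lower. The share higher was no larger than the 23 of 37 tested members of the whole list. TTCNNNGAA occurred in 7 of the 33 promoters (21.2%) and in 7.02% of all. In the antigen presentation list 16 of 20 genes matched, and 3 of 18 promoters held the IRF letters and 1, that of Psmb8, the STAT letters. The windows of Gbp2 and Cxcl10, which changed in opposite directions, each hold the IRF letters and no STAT letters.

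Chemokine and NF-kB target genes were split, with 5 of 21 higher and 6 lower. Of the 6 lower members 4 lie in the low segments, and outside the segments 5 were higher and 2 lower. Ccl9, a macrophage chemokine, rose from 5.44 and 5.20 to 19.2 and 16.1 CPM (1.73, SE 0.14, edgeR adjusted p = 3.59e-09) and held in all 6 fits with libraries left out. Ccl7, which draws monocytes, rose from 19.7 and 14.3 to 45.0 and 40.0 CPM (1.33, SE 0.09) and lost its call without either line (adjusted p up to 0.228, without line 12). For both the t48 libraries lay above the t0 libraries.

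Genes of glycolysis and the hypoxia response rose in 25 of 36 tested cases and fell in none, with a median of 0.29. Hypoxia-inducible factor switches these genes on when the prolyl hydroxylases that mark it for destruction lack oxygen, and some of the hydroxylase genes are themselves its targets. Egln3, such a hydroxylase, rose from 3.27 and 2.50 to 20.5 and 17.6 CPM (2.72, SE 0.15, edgeR adjusted p = 1.16e-11), although it lies in the low part of chromosome 12. Car9, a carbonic anhydrase at the cell surface, rose from 22.8 and 17.1 to 47.7 and 44.5 CPM (1.22, SE 0.09). P4ha2, which hydroxylates collagen, rose from 135 and 122 to 222 and 213 CPM (0.76, SE 0.05, adjusted p = 2.9e-10). These 3 genes separated the labels in both lines, as 4214 of the 4359 called genes did, and kept their calls whichever library or line was left out. Among the glycolytic enzymes, which are abundant, the steps were smaller. Gapdh stood at 5842 and 5695 CPM at t0 and 6882 and 6331 CPM at t48 (0.19, SE 0.07, adjusted p = 0.0234), and its call was lost in each of the 6 fits with libraries left out (adjusted p up to 0.594). Vegfa, a classic target that drives vessel growth, stood at 178 and 176 against 167 and 173 CPM and was not called. With scaling on the genes outside the low segments the list had 21 members higher and 3 lower, without line 10 it had 4 higher and without line 12 it had 9.

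The upstream windows of Car9, chr4:43506776-43507025 (plus strand), and Egln3, chr12:54203875-54204124 (minus strand), are shown for the letters ACGTG, the core that hypoxia-inducible factor is known to bind, in capitals and searched on both strands.
Car9: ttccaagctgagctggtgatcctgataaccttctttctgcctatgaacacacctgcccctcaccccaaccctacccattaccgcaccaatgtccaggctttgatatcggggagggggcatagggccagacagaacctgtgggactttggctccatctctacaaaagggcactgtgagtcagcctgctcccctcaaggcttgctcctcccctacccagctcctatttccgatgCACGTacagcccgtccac
Egln3: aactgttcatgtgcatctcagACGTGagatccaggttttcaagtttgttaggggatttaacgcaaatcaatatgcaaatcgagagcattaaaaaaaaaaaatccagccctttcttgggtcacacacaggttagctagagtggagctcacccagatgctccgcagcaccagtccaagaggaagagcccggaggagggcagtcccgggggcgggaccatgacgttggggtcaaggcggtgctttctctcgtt
The match begins 18 bases before the start of Car9, where the capitals are the reverse strand, and 229 bases before that of Egln3. Of 37 listed genes 34 matched the table, and 25 of their 56 promoters (44.6%) held ACGTG, against 16.6% of all. Of the 21 genes with such a promoter 13 were called higher, no larger a share than the 25 of 36 tested members of the whole list.

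Most cell cycle genes rose by small amounts. Of 29 tested genes of G2/M and mitosis 24 were higher and 1 lower, with a median of 0.24, and of 30 genes of G1/S and DNA replication 16 were higher and 2 lower, with a median of 0.22. Dlgap5, a spindle protein, rose from 88.4 and 93.2 to 121 and 124 CPM (0.43, SE 0.05, edgeR adjusted p = 4.65e-07). Aurkb, a kinase of chromosome alignment, rose from 58.7 and 53.3 to 81.1 and 74.4 CPM (0.47, SE 0.06), and Ccnb1, the mitotic cyclin, from 104 and 113 to 142 and 139 CPM (0.37, SE 0.05). Uhrf1, which keeps DNA methylation through replication, stood at 165 and 139.7 CPM at t0 and at 211 and 177 CPM at t48 (0.35, SE 0.05). The 3 members that were lower, Cenpe, Pole and Rfc3, all lie in the low segments. Cenpe, a kinetochore motor, was at 125 and 118 against 99.8 and 103 CPM, and Pole, the leading strand polymerase, at 83.6 and 83.3 against 71.2 and 66.7 CPM. Of the 11 tested CDK inhibitors, D cyclins and their kinases 6 were lower and 1 higher. Cdkn2a, the INK4a and ARF locus, fell from 153 and 129.6 to 122 and 107 CPM (-0.30, SE 0.05, adjusted p = 4.26e-05), and Cdkn1a, the p53 target p21, from 40.8 and 54.2 to 33.9 and 37.0 CPM (-0.42, SE 0.08, adjusted p = 0.000278). The labels did not overlap for any of these genes. Each of the 8 genes given here with values lost its call with line 10 left out and again with line 12 left out, with adjusted p up to 0.189 for Dlgap5, 0.057 for Aurkb, 0.288 for Ccnb1, 0.702 for Cenpe, 0.153 for Pole, 0.320 for Cdkn2a and 0.817 for Cdkn1a. For Uhrf1 the highest was 0.219, with the t0 library of line 12 left out. The calls of Cenpe (t0 or t48 of line 10), Uhrf1 (also t48 of line 10), Pole (either t0 library or t48 of line 12), Cdkn2a (t0 of line 10 or t48 of line 12) and Cdkn1a (t48 of line 10 or either library of line 12) were also lost with 1 library left out. Without line 10 there were 2 G2/M members higher and no G1/S member, and without line 12 there were 1 and 2.

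Target genes of cAMP signalling were called about as often as other genes. Cyclic AMP activates protein kinase A, which phosphorylates CREB and so switches on immediate early genes and the phosphodiesterases that end the signal. Of 23 tested CREB target genes 6 were higher and 3 lower, a share of 39.1% called where 37.7% of all genes were. Pde4b, a phosphodiesterase that degrades cAMP, rose from 1.27 and 1.86 to 9.72 and 11.9 CPM (2.79, SE 0.21, edgeR adjusted p = 1.39e-09), and Dusp1, a phosphatase of MAP kinases, from 17.6 and 19.3 to 28.4 and 34.2 CPM (0.76, SE 0.09). Nr4a2, an orphan nuclear receptor, fell from 10.7 and 10.6 to 4.12 and 4.36 CPM (-1.33, SE 0.17). Its relative Nr4a1 stood at 12.7 and 11.3 against 8.90 and 9.97 CPM and was not called (adjusted p = 0.0584), nor was Crem, a CREB relative, at 2.48 and 2.60 against 1.95 and 1.70 CPM (adjusted p = 0.247). Of 25 genes of the cAMP machinery 4 were higher and 10 lower, and 4 of the 10 lie in the low segments. Crtc1, a CREB coactivator on chromosome 8, fell from 37.2 and 34.1 to 22.6 and 21.6 CPM (-0.69, SE 0.08). Prkacb, a catalytic subunit of protein kinase A on chromosome 3, fell from 75.8 and 82.1 to 58.1 and 58.9 CPM (-0.43, SE 0.06), and Prkar2b, a regulatory subunit, from 97.9 and 100.2 to 73.4 and 66.7 CPM (-0.50, SE 0.06). Prkar2b is on chromosome 12 but before the low part. Crtc1 kept its call in all 6 fits with libraries left out. Without either line Pde4b (adjusted p up to 0.515), Dusp1 (0.247), Nr4a2 (0.328) and Prkar2b (0.168) lost theirs, and without line 12 Prkacb did (0.0792).

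The list of YAP and TAZ, the coactivators that the Hippo pathway holds out of the nucleus, was lower more often than higher. Of its 24 tested members 11 were lower and 4 higher, with a median of -0.16. Besides targets it holds Yap1 and Tead1, both among the higher members, and Wwtr1, the gene of TAZ, among the lower. Ccn2, a matricellular protein also known as CTGF, fell from 385 and 426 to 218 and 266 CPM (-0.75, SE 0.06, edgeR adjusted p = 6.22e-09). Ccn1, its relative CYR61, fell from 220.4 and 226 to 139 and 159.8 CPM (-0.58, SE 0.06), and lies on chromosome 3. Yap1 itself was at 87.1 and 85.7 CPM at t0 and 96.1 and 96.3 CPM at t48 (0.16, SE 0.05, adjusted p = 0.0213) and Tead1, the factor that YAP binds, rose from 257 and 272 to 323 and 345 CPM (0.34, SE 0.06). The t48 libraries lay outside the t0 range for all 4. Ccn2, Ccn1, Yap1 and Tead1 lost their calls without either line (adjusted p up to 0.698, 0.510, 0.335 and 0.344), Yap1 also with any 1 library left out and Tead1 with the t0 library of line 10 left out. No member was lower without line 10 or without line 12.

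Matrix genes were lower in 14 of 29 tested cases and higher in 6, with a median of -0.14. Postn, periostin, a matricellular protein of fibroblasts, stood at 162 and 166 CPM at t0 and 33.4 and 36.0 CPM at t48 (-2.24, SE 0.05, edgeR adjusted p = 9.09e-18). It lies on chromosome 3, where the median was -0.22 and -0.25. Thbs1, thrombospondin 1, which releases TGF-beta from its latent form, fell from 757 and 763 to 396 and 412 CPM (-0.91, SE 0.07). Col1a2, a chain of type I collagen, fell from 2725 and 2669 to 2036 and 1991 CPM (-0.42, SE 0.07). Col1a1, the other chain of that collagen, was not called. It was at 2735 and 2545 CPM at t0 and 3104 and 2689 CPM at t48 (TMM factors of all 13 libraries). Timp2, an inhibitor of matrix proteases, fell from 2014 and 2293 to 1449.9 and 1600.5 CPM (-0.50, SE 0.07). Other matrix genes went the opposite way. Fn1, fibronectin, rose from 5226 and 6306 to 8149 and 7801 CPM (0.47, SE 0.08), Col6a3, a chain of type VI collagen, from 909.7 and 974 to 1546 and 1401 CPM (0.64, SE 0.07), and Lama4, a laminin chain, from 39.6 and 42.5 to 65.5 and 73.7 CPM (0.76, SE 0.07). Of 19 matrix proteases 9 were lower and 4 higher, with Adam12, a membrane metalloprotease, falling from 58.5 and 59.8 to 31.0 and 29.0 CPM (-0.98, SE 0.07) and Mmp19 rising from 14.5 and 17.1 to 28.1 and 30.7 CPM (0.90, SE 0.10). Lama4 kept its call in all 6 fits with libraries left out. The call was lost without either line by Postn (adjusted p up to 0.0692), Thbs1 (0.235), Col1a2 (0.145), Fn1 (0.409), Adam12 (0.181) and Mmp19 (0.178), without line 10 by Col6a3 (0.145) and without line 12 by Timp2 (0.0515). Without line 10 the matrix list had 1 member lower and 1 higher and the proteases 3 lower and none higher, and without line 12 the matrix list had none lower and 2 higher and the proteases none either way.

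TGF-beta and BMP genes were lower more often than higher, with 12 of 20 tested members lower, 3 higher and a median of -0.34. These ligands act through SMAD factors, which switch on the Id genes and their own feedback inhibitors. Tgfb3, a ligand in the low part of chromosome 12, fell from 106 and 100.4 to 58.6 and 56.1 CPM (-0.84, SE 0.06, edgeR adjusted p = 1.5e-10). Id3, an inhibitor of helix-loop-helix factors, fell from 50.6 and 46.9 to 31.4 and 28.4 CPM (-0.71, SE 0.07). Tgfbi, a matrix protein named for its induction by TGF-beta, rose from 237 and 232 to 353 and 348 CPM (0.58, SE 0.06). Of the 12 lower members 4 lie in the low segments. Of the Wnt genes, 9 of 14 tested members were lower and 3 higher, with a median of -0.47. Axin2, the feedback inhibitor that reports beta-catenin activity, fell from 3.96 and 5.10 to 0.977 and 1.80 CPM (-1.72, SE 0.29, adjusted p = 7.97e-05). Among the secreted Dkk proteins, Dkk2, on chromosome 3, fell from 5.86 and 3.98 to 0.977 and 1.05 CPM (-2.24, SE 0.30), whereas Dkk3 rose from 105 and 101 to 130.3 and 141 CPM (0.40, SE 0.05). No t48 library of these 6 genes fell within the t0 range. Tgfbi kept its call in all 6 fits with libraries left out. Tgfb3 (adjusted p up to 0.106), Id3 (0.340), Axin2 (0.159, also with the t0 library of line 12 left out) and Dkk2 (0.392) lost theirs without either line, and Dkk3 (0.0653) without line 12. Without line 10 there was 1 TGF-beta member lower and there were 2 Wnt members lower, and without line 12 there was 1 and there was none.

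Growth factor ligands, receptors and binding proteins moved both ways, with 7 of 22 tested members higher and 9 lower. Of the 9 lower members 4 lie in the low segments, and outside the segments 7 were higher and 5 lower. Among receptors, Pdgfra, the PDGF receptor alpha of mesenchymal cells, rose from 12.3 and 14.3 to 42.9 and 41.5 CPM (1.66, SE 0.09, edgeR adjusted p = 1.14e-11), and Egfr, the receptor of EGF, from 58.7 and 57.1 to 92.3 and 94.5 CPM (0.69, SE 0.06). Among ligands, Fgf7, a growth factor for epithelia, fell from 334 and 404 to 223 and 253 CPM (-0.63, SE 0.06), and Fgf2, on chromosome 3, from 32.4 and 39.2 to 20.6 and 22.5 CPM (-0.73, SE 0.08). Igfbp5, which binds insulin-like growth factors, had the largest fall of the list, from 73.6 and 107 to 10.7 and 12.8 CPM (-2.93, SE 0.08, adjusted p = 3.44e-16). The labels were apart in both lines for these 5 genes. Egfr kept its call in all 6 fits with libraries left out. Pdgfra (adjusted p up to 0.176) and Fgf7 (0.193) lost theirs without either line, Fgf2 (0.0736) without line 12, and Igfbp5 with either t48 library left out (0.144, without that of line 10). ERK output, which receptors of this kind switch on, was higher in 9 of 19 members and lower in 4. Etv5, an ETS factor, rose from 47.4 and 51.4 to 90.0 and 86.9 CPM (0.84, SE 0.06) and lost its call without either line (adjusted p up to 0.136).

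Guidance and positional genes were lower more often than higher. Of 33 tested axon guidance genes 14 were lower and 4 higher, and of 21 Hox and homeobox genes 8 were lower and none higher. Of the lower members 1 guidance gene and 3 Hox and homeobox genes lie in the low segments. Plxna2, a semaphorin receptor, stood at 45.3 and 46.4 CPM at t0 and 13.1 and 13.1 CPM at t48 (-1.80, SE 0.09, edgeR adjusted p = 8.61e-13), and Sema3a, a secreted semaphorin, at 323 and 326 against 217 and 216 CPM (-0.58, SE 0.06). The libraries of each label lay close together for both genes. Plxna2 kept its call in all 6 fits with libraries left out, and Sema3a lost its call without either line (adjusted p up to 0.252). Without line 10 and without line 12 there were 3 lower members in each of the 2 lists.

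Genes of the NRF2 response, which protects against oxidants by making glutathione, rose in 11 of 22 tested cases and fell in 2. Gclc, the rate-limiting enzyme of glutathione synthesis, rose from 87.9 and 92.1 to 136 and 144 CPM (0.64, SE 0.05, edgeR adjusted p = 1.36e-09), and Gstm2, a glutathione transferase on chromosome 3, from 16.2 and 20.3 to 38.4 and 43.7 CPM (1.17, SE 0.08). Hmox1, heme oxygenase 1, on chromosome 8, fell from 275 and 304 to 182 and 182 CPM (-0.67, SE 0.06). The t48 libraries of these 3 genes lay outside the t0 range, Gclc and Gstm2 kept their calls in all 6 fits with libraries left out, and Hmox1 lost its call without either line (adjusted p up to 0.164). Without line 10 there were 4 members higher and without line 12 there were 7. Ribosomal protein genes rose by small steps in 19 of 30 cases and fell in 3, with a median of 0.21. Rps3 was at 668 and 686 CPM at t0 and 857 and 815 CPM at t48 (0.30, SE 0.07), and Rpl5, in the low part of chromosome 5, fell from 65.5 and 57.7 to 46.0 and 38.1 CPM (-0.55, SE 0.07). Rps3 lost its call without either line and without either t0 library (adjusted p up to 0.211), Rpl5 with the t0 library of line 10 left out (0.0678), and 1 member of the list was higher without line 10 and none without line 12. Eef1a1, an elongation factor and the most abundant called gene, stood at 8402 and 8619.7 against 9592 and 9487 CPM (0.16, SE 0.06, adjusted p = 0.0482) and lost its call in all 6.

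None of the 13 tested mRNAs of mitochondrial DNA was called by edgeR, with or without the block, or by DESeq2. Their median log2 ratio was -0.35 in line 10 and 0.34 in line 12, so the 2 lines moved apart. The member with the smallest p, mt-Nd6, a subunit of complex I, stood at 10.3 CPM at t0 and 6.89 CPM at t48 in line 10, and at 6.33 and 7.22 CPM in line 12 (unadjusted p = 0.290), so none had an unadjusted p below 0.05. With the t48 library of line 10 left out 3 members were higher, and with that of line 12 left out 3 were lower. With the t0 library of line 12, or all of line 12, left out 1 was lower. Of 38 nuclear genes of the respiratory chain 6 were higher and 7 lower, with 3 of the 7 in the low segments. Of 30 genes of the mitochondrial ribosome 11 were higher and 3 lower, all 3 in the low segments. Of those 30, 5 were higher with scaling on the genes outside those segments, 2 without the block, and none by DESeq2, without line 10 or without line 12.

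The remaining lists held fewer or more divided calls. In the p53 pathway, which halts the cycle or kills damaged cells, 4 of 20 tested members were higher and 3 lower. The counts were 6 and 5 of 29 for the integrated stress response, 3 and 5 of 20 for chaperones of the endoplasmic reticulum, 4 and 2 of 13 for heat shock chaperones, 2 and 0 of 15 for the circadian clock and 6 and 2 of 18 for genes of dedifferentiated melanoma. Of the 5 lower members, 3 lie in the low segments in the integrated stress list and again 3 in that of the endoplasmic reticulum. Lysosome and autophagy genes had 4 higher and 11 lower of 26, with 6 of the 11 in the low segments. Sterol and fatty acid synthesis had 3 higher and 8 lower of 28, with 4 of the 8 in the low segments. Among the lists described above, no CDK inhibitor or D cyclin and no CREB target was called without line 10 or without line 12. Of the cAMP machinery 2 members were lower without line 10 and 1 without line 12, of the chemokine list 1 was higher without line 10 and 1 was higher and 1 lower without line 12, and of the ERK list none and 1 were higher. Of the growth factor list 2 were higher and 3 lower without line 10, and 2 higher and 2 lower without line 12.

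The same labels were then set against each other in the NLS lines, to ask which LacZ changes differed from those of the lines titled NLS, of which line 16 had little Adcy10. These share no library with the LacZ lines. The difference between the LacZ and the NLS response was past the threshold for 4843 of 11567 genes (41.9%), and the NLS lines had 4888 calls of their own (42.3%). Of 2182 genes called in both, 1027 changed in the same direction and 1155 in opposite directions, and across all genes the 2 sets of changes correlated at r = -0.129, a description with no test. Of the 82 genes plotted, 65 differed and 32 were called with opposite signs. Of the contractile list 6 of 17 differed, a share near that of all genes. Acta2 rose by 1.60 in the NLS lines and Tagln by 2.50, and neither differed from LacZ (edgeR interaction adjusted p = 0.197 and 0.637). Postn rose by 1.94 in the NLS lines and fell by 2.24 in the LacZ lines (difference -4.17, adjusted p = 0.000394). Igfbp5 rose by 4.30 in the NLS lines (difference -7.22, adjusted p = 0.000796). Psmb8 had a change of 0.08 there (adjusted p = 0.316), and the difference was 2.74 (adjusted p = 3.94e-12). Of 16 antigen presentation genes 15 differed, 13 of them toward the LacZ lines, and of 37 interferon genes 26 differed, 25 of them toward the LacZ lines. Without the line number as a block 2786 genes differed. With NLS line 16 left out, an alternative chosen after seeing the data, 4191 differed, and the differences were -4.29 for Postn, -7.30 for Igfbp5 and 2.77 for Psmb8 (edgeR adjusted p = 2.32e-06, 0.00887 and 1.23e-14). Of the 65 plotted genes that differed, 63 did so again, and Pole and Sema3a did not (adjusted p = 0.0899 and 0.0671). The part of the chromosome shifts in either set of lines in these differences was not tested.

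**Figure D5:**
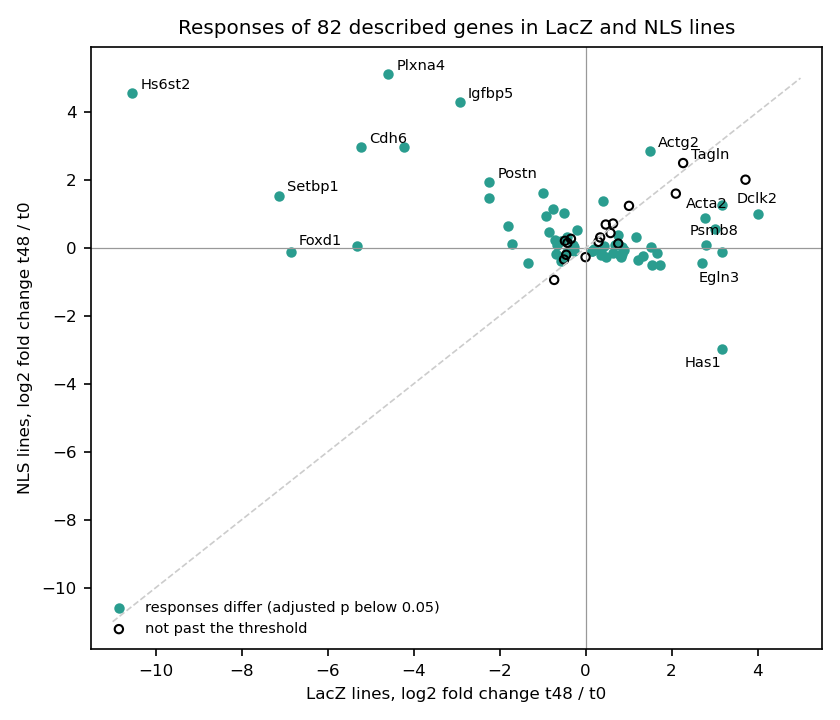
Log2 fold change of t48 over t0 in the NLS lines against that in the LacZ lines for the 82 described genes, filled where the difference was past the threshold, with the line of equal change dashed. Tagln and Acta2 lie near the line, while Hs6st2, Plxna4, Igfbp5 and Postn fell at t48 in LacZ and rose in NLS. The NLS rise of Hs6st2 is near the floor, with at most 0.0482 CPM at t0 and 1.04 CPM at t48.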

How the data were processed

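RNA of 13 libraries was sequenced as stranded, poly(A) paired-end libraries, per the labels' protocols. The deposited files give estimated counts and TPM per Ensembl transcript from Salmon 1.2.0 with GRCm38, per the submitters' processing notes. Estimated counts were summed per gene (115977 of 116546 transcripts matched GENCODE, GRCm38) and rounded; the deposited TPM values entered only as length-scaled counts in an alternative. Salmon shares reads between near-identical genes, so families such as Gbp, Ifit and H2 are uncertain. Genes at 1 CPM in at least 2 libraries were fitted on the 4 LacZ libraries with edgeR 4.0.16 (R 4.3.3, TMM, robust quasi-likelihood, Benjamini-Hochberg adjusted p below 0.05), with the cell line number as a block, which leaves 1 residual degree of freedom. Equal numbers were taken to mark the same cell line, which pairs the libraries. Deviations of same-numbered libraries from the means of their labels correlated at 0.0608. The values themselves thus give little sign of the pairing, and counts without the block are given beside those with it. The difference from NLS was an interaction term. The code was tested on simulated data. Described genes come from the 12 largest changes each way, up to 3 list members each way by smallest p, the 10 most abundant called genes and 8 set names. The H2 genes, B2m, Vegfa and Col1a1 were chosen after their values were seen. The members, the 38 gene lists and the tests were chosen with earlier results of these data known.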

Additional observations from a re-analysis of the deposited data

Results flagged for a closer look

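The LacZ and NLS responses to the t48 label differed, by the edgeR interaction test, in 4843 genes, among them 65 of the genes described. The values are the log2 fold change of t48 over t0 in LacZ minus that in NLS. Each group also differs in cell line, which cannot be told apart from the LacZ or NLS construct.

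Among genes called in both with opposite signs, the difference was positive for Has1 6.15, Egln3 3.17, Ccl9 2.24, Igtp 2.04, Pdgfra 1.82, Ccl7 1.56, Gbp2 1.11, Psme2 1.05, Ifi35 1.02, Gclc 0.78, Aurkb 0.75, Uhrf1 0.56 and Ccnb1 0.52. It was negative for Hs6st2 -15.18, Plxna4 -9.69, Setbp1 -8.66, Cdh6 -8.20, Igfbp5 -7.22, Tnik -7.18, Postn -4.17, Dkk2 -3.72, Adam12 -2.59, Plxna2 -2.45, Ccn2 -1.89, Thbs1 -1.86, Des -1.53, Tgfb3 -1.31, Id3 -0.93, Fgf7 -0.80, Ccn1 -0.79, Pax3 -0.73 and Col1a2 -0.72. The value of Hs6st2 depends on the prior count, since both its t48 LacZ libraries had 0 reads, and is no bound. In the NLS lines Hs6st2 also lay near the floor, at 0 to 0.0482 CPM at t0 and 0.673 to 1.04 CPM at t48.

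Among the others, the difference was positive for Ripk3 3.31, Dclk2 2.99, Psmb8 2.74, Fas 2.44, Siglecg 1.93, Pde4b 1.92, Car9 1.59, Tap2 1.51, Mmp19 0.95, Gstm2 0.85, Etv5 0.82, Lama4 0.65, Egfr 0.62, P4ha2 0.38, Dlgap5 0.38, Eef1a1 0.27, Yap1 0.26 and Gapdh 0.22. It was negative for Foxd1 -6.76, Robo2 -5.36, Axin2 -1.80, Actg2 -1.34, Dkk3 -0.97, Nr4a2 -0.89, Hmox1 -0.74, Crtc1 -0.51, Cdkn2a -0.39, Prkacb -0.31, Cenpe -0.29, Rpl5 -0.28, Timp2 -0.20, Sema3a -0.19 and Pole -0.18.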

How the results depend on the processing

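The main test called 4359 genes, 2094 higher and 2265 lower. Without the cell line as a block it called 2710, with 1183 higher (2704 of the 2710 were also called with the block), and 2786 genes differed between LacZ and NLS in place of 4843. With NLS line 16 left out 4191 did. All 13 libraries without the block gave 2440 (1169 higher, 1271 lower), DESeq2 gave 1328 (672 and 656) and length-scaled TPM counts gave 2226 (1024 and 1202). Besides Hs6st2, DESeq2 did not call Des, Cdkn1a, Cenpe, Pole, Cxcl10, Pax3 and Yap1 (adjusted p from 0.0592 to 0.458). By DESeq2 the Wnt list had 2 members lower, axon guidance 6 lower and G1/S 5 higher, while the glycolysis and hypoxia list had 20 higher. With the genes of the low segments left out, an alternative chosen after seeing the data, 1488 were lower. With libraries left out, called genes ranged from 536 (without line 10) to 2467 (without the t48 library of line 12), higher genes from 232 to 1150 and lower genes from 304 to 1317. In fits without a whole line the lone libraries are assumed to vary like the other groups. The cause of these differences was not tested. Of 198 named genes 192 were called and 39 kept the call in all 6 fits with libraries left out. In 3326 alternatives of named genes no change of sign was seen where the main fit or the alternative called the gene. A change of sign in a gene called by neither was not counted. Of these alternatives 706 lost and 4 gained a call, and 442 of 1292 counts of list members moved by more than 1.5 times. Depth limits genes near 1 CPM, which had about 20 reads a library.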
